A study of Rattus norvegicus with 12 samples.

Results

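Hepcidin, encoded by Hamp, and 9 other genes of iron handling were followed in rat liver. The 10 genes were chosen by name from earlier results of the same arrays, and all probe sets that the platform annotation pairs with 1 of these symbols were taken. Of the 14217 genes that have such a probe set, 8 were among the 10, measured by 17 probe sets. The other 2, Tf (transferrin, the carrier of iron in plasma) and Fth1 (the ferritin heavy chain, which stores iron), were represented by 3 probe sets with several symbols and are not described further. Because the choice drew on these arrays, the levels, spreads and relations between the genes below are descriptions, and the p values printed beside them are not independent support.

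Livers came from male Wistar rats, a commonly used outbred strain, five-week-old per the labels. All rats first ate the AIN93G diet, a standard purified rodent diet, for 4 days. For the next 11 days 1 group ate that diet with 20% maple syrup, and the other ate it with 20% of a sugar mix syrup made to match its sugars closely. Both were fasted for 16 hours, and 6 livers per diet were each hybridised to 1 Affymetrix array.

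Hepcidin is a peptide hormone made by hepatocytes. It binds ferroportin, the iron exporter encoded by Slc40a1, and causes its degradation, so that less iron enters the plasma from the gut and from macrophages. Its gene is switched on by BMP6, a ligand made largely by the endothelial cells of the liver sinusoids, through BMP receptors, the co-receptor hemojuvelin and SMAD transcription factors. Id1 and Smad7 are target genes of the same signal, and Smad7 encodes an inhibitor of it. Transferrin receptor 2 (Tfr2) senses iron-loaded transferrin on hepatocytes, and interleukin 6 raises Hamp by a separate route through STAT3. Transferrin receptor 1 (Tfrc) imports transferrin iron, and Slc11a2 (DMT1) carries iron across the membrane of the endosome. The mRNAs of Tfrc and of some isoforms of Slc11a2 carry iron-responsive elements, which let iron regulatory proteins stabilise them when iron is scarce.

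Stretches of the promoters of Hamp, Smad7 and Tfrc are shown because they hold the letters of the BMP response element core (GGCGCC). They come from RefSeq, build GRCr8, and are written 5′ to 3′ on the gene's own strand. Capitals mark GGCGCC and, in Hamp, a match to TTCNNNGAA, the paired half-sites bound by STAT factors. The Hamp stretch is chr1:95300335-95300445 on the minus strand, the Smad7 stretch chr18:71263392-71263497 on the plus strand, and the Tfrc stretch chr11:81690401-81690466 on the minus strand.
Hamp: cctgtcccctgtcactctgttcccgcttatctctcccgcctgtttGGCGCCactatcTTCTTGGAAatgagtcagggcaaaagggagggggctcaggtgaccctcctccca
Smad7: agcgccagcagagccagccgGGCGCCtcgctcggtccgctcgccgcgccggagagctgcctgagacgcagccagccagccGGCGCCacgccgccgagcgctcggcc
Tfrc: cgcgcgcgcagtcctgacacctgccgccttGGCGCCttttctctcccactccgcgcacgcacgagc
In the Hamp promoter GGCGCC began 129 bases and TTCTTGGAA began 117 bases upstream of the annotated start. Smad7 had GGCGCC at 96 and at 36 bases upstream, and Tfrc had it at 118 bases upstream. Windows of 300 bases were searched on both strands, and GGCGCC was found in 11% and TTCNNNGAA in 8.87% of all 33469 promoter windows. Neither motif was found in the windows of Bmp6, Id1, Tfr2, Slc11a2, Slc40a1 or Tf. The core of the hypoxia response element (ACGTG, in 19.3% of windows) was found 31 bases upstream in Tfrc and, on the opposite strand, just after the start in Bmp6. A match is a description of the letters and not a measured binding site.

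The deposited values are on a scale that looks like log2 intensity in its levels, which ran between 5.56513 and 15.2071, but not in its differences between livers. The median probe set with 1 symbol had an SD of only 7.65e-06 over the 12 livers. No fold change is therefore given. Levels are called scores, differences between diets are given as Hedges' g (the difference of the means in units of the SD within diets), and single livers are given as standardised levels, that is, in units of the gene's own SD over the 12 livers. The number of arrays limits the precision. All 9 hepatocyte markers measured, among them Alb and Apoa1, had mean scores between 11.35 and 15.21. Array medians lay between 7.36619 and 7.36632, and no 2 arrays held identical values.

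Hamp varied between livers far more than the other iron genes did on this scale. Its mean score was 10.17 with an SD of 0.158 over the 12 livers, which ranked 5 among the 20826 probe sets with 1 symbol. In maple syrup livers the lowest, median and highest Hamp scores were 9.90, 10.25 and 10.31. In sugar mix livers they were 9.90, 10.15 and 10.35. The diets overlapped over nearly their whole range. 3 livers, maple syrup replicate 5 and sugar mix replicates 1 and 3, had scores of 9.90, 9.90 and 9.97, and the other 9 livers lay between 10.14 and 10.35. As these are whole-liver samples, fewer cells of a type and less RNA per cell cannot be told apart.

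The next widest spread belonged to Tfrc. Its 2 probe sets had mean scores of 10.10 and 8.30 and SDs of 0.00202 and 0.00157, at ranks 242 and 291. Every other member probe set had an SD below 0.0001. For Slc40a1 the SDs of the 3 probe sets, with mean scores of 11.14, 10.93 and 8.23, were 6.1e-06, 8.08e-05 and 6.08e-05. Tfr2 had a mean score of 11.18 and an SD of 3.41e-06, and Id1 had 7.97 and 1.69e-05. Compression may differ between probe sets, so the ranks of spread describe the deposited values and not the variation of the mRNA.

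The comparison of maple syrup with sugar mix asked whether the natural syrup altered liver expression beyond its sugars. None of the 8 iron genes passed the test between the diets. With limma across all 20826 probe sets, 0 of the 17 member probe sets passed a Benjamini-Hochberg adjusted p of 0.05, against 0 (0%) of all probe sets, whose lowest adjusted p was 0.627. Unadjusted, at a p of 0.05, 873 probe sets (4.19%) and 0 of the 17 were called. The 2 diets did not overlap in 19 probe sets (0.0912%), and in none of the 17. Of the member probe sets 8 were higher and 9 lower with maple syrup, with a median g of -0.05, beside a median of -0.04 over the 14217 genes.

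Hamp itself had a g of 0.42 with a 95% interval of -0.65 to 1.47, and a maple syrup liver exceeded a sugar mix liver in 22 of 36 pairs (unadjusted limma p = 0.438, adjusted p = 1; exact permutation p = 0.444, two-sided). Its moderated t was 0.80, and leaving out single livers gave 0.30 (without sugar mix replicate 1) to 1.75 (without maple syrup replicate 5). With 6 livers a diet the interval reached about 1 SD to either side of the estimate, so a difference of moderate size was not detectable.

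Among the genes of the BMP route, Smad7, the inhibitory SMAD, had the smallest p of the members. Its brightest probe set had standardised levels with a lowest, median and highest value of -1.07, 0.52 and 1.84 in maple syrup livers and of -1.14, -0.36 and 0.57 in sugar mix livers. The 3 highest livers were all fed maple syrup, but the diets overlapped. The g was 0.83 (95% interval -0.29 to 1.92; unadjusted limma p = 0.136, adjusted p = 1; exact permutation p = 0.149). The other 2 Smad7 probe sets had g of 0.18 and 0.20. For the ligand Bmp6 the brightest of 4 probe sets had levels of -1.44, 0.44 and 1.61 in maple syrup livers and -1.24, -0.27 and 0.54 in sugar mix livers (g 0.59, -0.50 to 1.66). Its other 3 probe sets had g of -0.38, -0.76 and 0.36, so the probe sets of 1 gene pointed in both directions. Id1 spread further in maple syrup livers (-1.19, -0.06 and 2.04) than in sugar mix livers (-0.86, -0.17 and 0.51), with a g of 0.28 (-0.78 to 1.32). This was not particular to Id1. Of the brightest probe sets, all but that of Hamp (SD 0.149 against 0.172) had a larger SD in maple syrup than in sugar mix livers. For Smad7 the SDs were 3.48e-05 and 1.97e-05. The dimmer probe sets went both ways. In the 2 dimmest of Bmp6 the SDs were 1.41e-05 against 1.88e-05 and 1.38e-06 against 1.86e-06. In the second of Slc40a1 they were 7.47e-05 against 9.11e-05, and in the remaining ones the SD was larger with maple syrup. The share over all probe sets was not taken. The differences in spread were not tested.

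The iron sensor and the transporters had differences of the opposite sign that were as small beside their error. Tfr2 had levels of -1.76, -0.42 and 0.87 in maple syrup livers and -0.96, 0.63 and 1.20 in sugar mix livers (g -0.61, -1.67 to 0.48). Tfrc had levels of -1.52, -0.13 and 1.12 in maple syrup livers and -0.83, 0.21 and 1.17 in sugar mix livers (g -0.28, -1.33 to 0.78), and its second probe set gave the same g of -0.28. Both diets held Tfrc levels near the top of the range. Slc11a2 had levels of -1.72, 0.28 and 1.08 in maple syrup livers and -1.02, 0.24 and 1.38 in sugar mix livers (g -0.26, -1.31 to 0.79), and its other probe set had a g of -0.05. Slc40a1, the exporter that hepcidin removes, had levels of -1.0, -0.41 and 2.07 in maple syrup livers and -1.20, 0.22 and 1.45 in sugar mix livers (g -0.14, -1.19 to 0.91). Its other probe sets had g of -0.32 and 0.62. Under quantile normalization the moderated t of Bmp6 and Smad7 was -1.40 and -0.78, opposite in sign to the values as deposited.

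**Figure D1:**
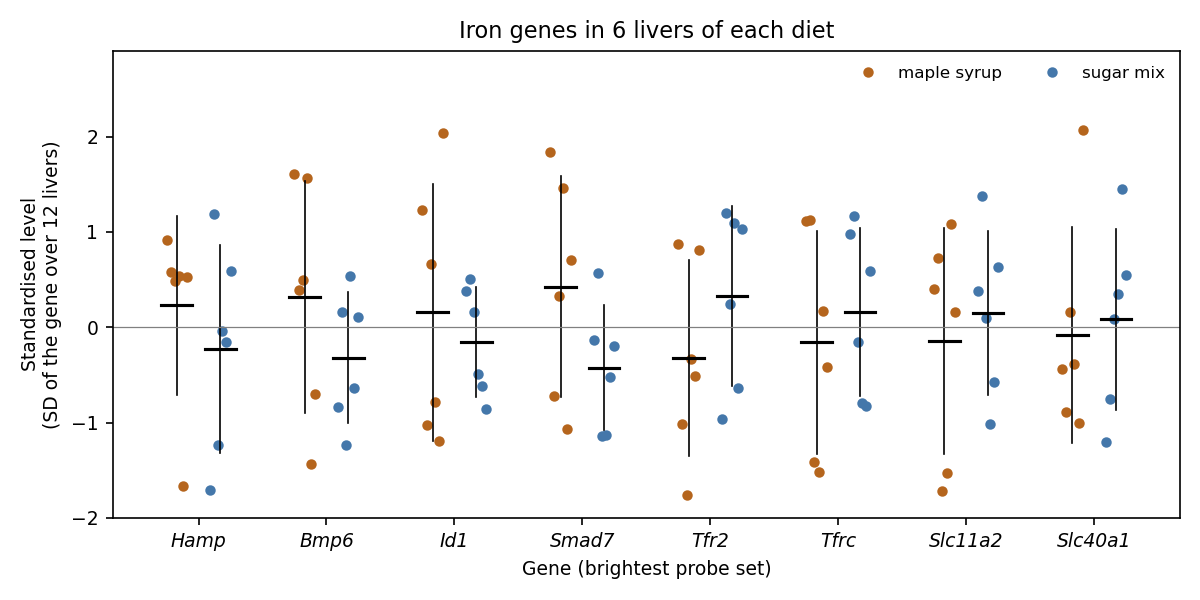
Standardised level (vertical axis, in SDs of the gene over 12 livers) of the brightest probe set of each of the 8 measured iron genes, with 1 point per liver, maple syrup to the left of sugar mix; the thick bar is the mean of 6 livers and the thin line spans 1 SD on each side. In every gene the diets overlap, and the low Hamp livers are 1 fed maple syrup (-1.67) and 2 fed sugar mix (-1.71 and -1.24).

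The relation of Hamp to the other genes was then taken across the 12 livers. Of the 7 other genes, 2 had a correlation with Hamp at an unadjusted permutation p of 0.05, Bmp6 and Smad7, by their brightest probe sets. These are 2 of 16 member probe sets, beside 947 (4.55%) of all 20825 probe sets other than Hamp. After Benjamini-Hochberg adjustment over all of these, no probe set passed, and the smallest adjusted p of any with Hamp was 0.208. Of the same 20825 probe sets, 211 (1.01%) had an r with Hamp of at least 0.7 in size, and 1847 (8.87%) of at least 0.5.

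Bmp6, the main inducing ligand, had an r of 0.74 with Hamp (permutation p = 0.00636, adjusted p = 1) and a Spearman rho of 0.64 (permutation p = 0.0267), and ranked 68 from the top of 20825 probe sets. The r was 0.76 within maple syrup livers and 0.76 within sugar mix livers. Without the 2 livers farthest from the Hamp median it was 0.62, and leaving out single livers gave 0.66 to 0.81. The 3 livers with the lowest Hamp were also the 3 lowest for this Bmp6 probe set, and in the other 9 livers r was 0.35. After quantile normalization r was -0.03. The other 3 Bmp6 probe sets had r of -0.30, -0.32 and -0.24 with Hamp. Their mean scores were 7.19, 7.08 and 6.96, below the array medians, beside 7.74 for the brightest. Between them, the 4 Bmp6 probe sets had correlations of -0.49 to 0.37, so they did not measure 1 shared pattern.

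Smad7 had an r of 0.61 (permutation p = 0.0352, adjusted p = 1) and a rho of 0.57 (permutation p = 0.0583). Here the other 2 probe sets pointed the same way, with r of 0.49 and 0.46, and the 3 ranked 397, 1129 and 1346 from the top. The mean scores of these other 2 were 7.00 and 6.50, below the array medians, beside 7.59 for the brightest. The r of these other 2 was 0.65 and 0.60 within maple syrup livers and 0.29 for both within sugar mix livers. Without the 2 farthest livers it was 0.24 for both. Between them, the 3 Smad7 probe sets had correlations of 0.17 to 0.55. The r of the brightest was 0.69 within maple syrup livers, 0.49 within sugar mix livers, 0.68 without the 2 farthest livers and 0.63 in the 9 livers with higher Hamp. The brightest probe sets of Bmp6 and Smad7 had an r of 0.68 (permutation p = 0.0154) and a rho of 0.50 (permutation p = 0.0992). Their r was 0.76 within maple syrup livers, 0.22 within sugar mix livers and 0.47 without the 2 livers farthest from the Bmp6 median. After quantile normalization it was 0.07. The other 3 Bmp6 probe sets had r of -0.25, -0.53 and 0.09 with the brightest Smad7 probe set. The other 2 Smad7 probe sets had r of 0.8 and 0.41 with the brightest Bmp6 probe set. Id1, the other BMP target, had an r of 0.26 with Hamp (permutation p = 0.413) and a rho of 0.19 (permutation p = 0.559), at 0.52 within maple syrup and -0.27 within sugar mix livers. Without the 2 farthest livers its r was 0.20. Id1 had an r of -0.73 with the medians of the arrays, beside -0.25 for Hamp; the part of the medians in these values was not tested.

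Over all livers, the brightest probe sets of the transferrin receptors and transporters had weaker relations with Hamp than those of Bmp6 and Smad7. They were not all weaker than that of Id1, whose r with Hamp was 0.26. Tfr2 had an r of 0.35 (permutation p = 0.257) and a rho of 0.48 (permutation p = 0.116). Within maple syrup livers its r was 0.19, within sugar mix livers 0.76, and without the 2 farthest livers 0.14. Tfrc had an r of 0.01 (permutation p = 0.977) and a rho of 0.38 (permutation p = 0.228), with -0.02 within maple syrup livers, 0.14 within sugar mix livers and 0.38 without the 2 farthest. In the 9 livers with higher Hamp, a setting chosen after seeing the data, the r of Tfrc was 0.63 (permutation p = 0.0721). Its value near 0 thus depended on the 3 livers with the lowest Hamp. For Slc11a2 the r was -0.11 (permutation p = 0.723) and rho 0.31 (permutation p = 0.331), with -0.43 within maple syrup livers and 0.34 within sugar mix livers. For Slc40a1 they were 0.26 (permutation p = 0.422) and 0.13 (permutation p = 0.7), and r was -0.28 without the 2 farthest livers. The signs of these values for the brightest Slc11a2 and Slc40a1 probe sets thus rested on a few livers. The other Slc11a2 probe set had an r of -0.48 with Hamp and a rho of -0.52, with -0.46 within maple syrup livers, -0.51 within sugar mix livers and -0.49 without the 2 farthest livers. The other Slc40a1 probe sets had r of 0.25 and 0.19 with Hamp, and the second Tfrc probe set had 0.01.

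**Figure D2:**
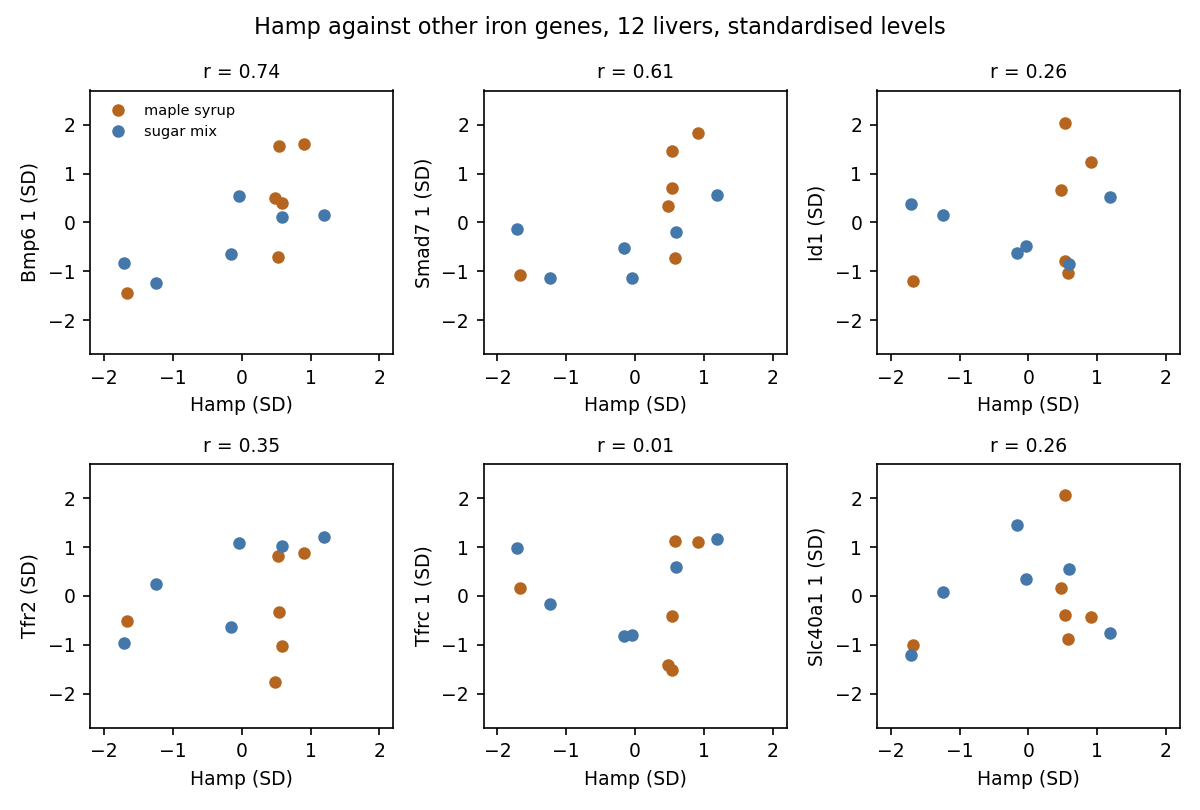
Standardised level of Hamp (horizontal axis, in SDs) against that of Bmp6, Smad7, Id1, Tfr2, Tfrc and Slc40a1 (vertical axes, in SDs; the number 1 marks the brightest of several probe sets), 1 point per liver, coloured by diet. The panels of Bmp6 (r = 0.74) and Smad7 (r = 0.61) slope upward, and that of Tfrc (r = 0.01) does not.

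The pair of members with the largest correlation was Tfrc and Slc11a2, which act one after the other in the uptake of transferrin iron. This pair was singled out after its values were seen, among 28 pairs of brightest probe sets. Their r was 0.89 (permutation p = 0.00017, adjusted over all 20824 probe sets p = 0.965) and their rho 0.89 (permutation p = 0.00025). Within maple syrup livers r was 0.86 (exact permutation p = 0.0444) and within sugar mix livers 0.92 (exact permutation p = 0.00833). Without the 2 livers farthest from the Tfrc median r was 0.77. Slc11a2 ranked 1 of 20824 probe sets in its correlation with Tfrc. The margin was small: Adcy4 came next with 0.88, and Rassf8 at the other end had -0.89. The second Tfrc probe set, whose r with the first was 0.97, had an r of 0.90 with Slc11a2 and also placed it at rank 1. With this second probe set Mtmr1 had 0.89 and Zbtb41 -0.90.

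The livers at both ends were the same for the 2 genes. Maple syrup replicates 3 and 4 were lowest, with Tfrc at -1.41 and -1.52 and Slc11a2 at -1.72 and -1.53. Sugar mix replicate 2 was highest, with 1.17 and 1.38. The other Slc11a2 probe set did not follow, with an r of -0.12 to Tfrc and of 0.13 to the brighter Slc11a2 probe set. After quantile normalization the r of Tfrc and the brighter Slc11a2 probe set was 0.52.

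Other values moved with Tfrc as well. All 9 measured markers of Kupffer cells and macrophages, of 12 listed, had a positive r with it, with a median of 0.39, beside a median of 0.04 over all genes, and Cd5l, a macrophage marker, had 0.84. The mean standardised level of the 9 ran between -1.49 and 0.65 in maple syrup livers and between -0.19 and 1.04 in sugar mix livers, and its r with Tfrc was 0.52. Between the diets, 1 of the 9 was higher and 8 were lower with maple syrup, with a median g of -0.68 and none past the test, beside the g of -0.28 of Tfrc. Over all genes 47.1% were higher, with a median g of -0.04. The markers share a cell type and the same arrays, and no test was made over the list. No Kupffer marker was near the lowest scores, with means of 8.48 to 11.59. Of the 9 rat control probe sets on the array, those for beta-actin had r of 0.59 to 0.77 with Tfrc, those for GAPDH 0.34 to 0.40 and those for hexokinase -0.23 to 0.02. The mean of 7 erythroid markers had -0.42. The part of these in the relation of Tfrc and Slc11a2 was not tested. With Hamp, the Kupffer mean had an r of -0.16, the sinusoidal endothelial mean -0.29, the stellate mean -0.46 and the hepatocyte mean -0.06.

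**Figure D3:**
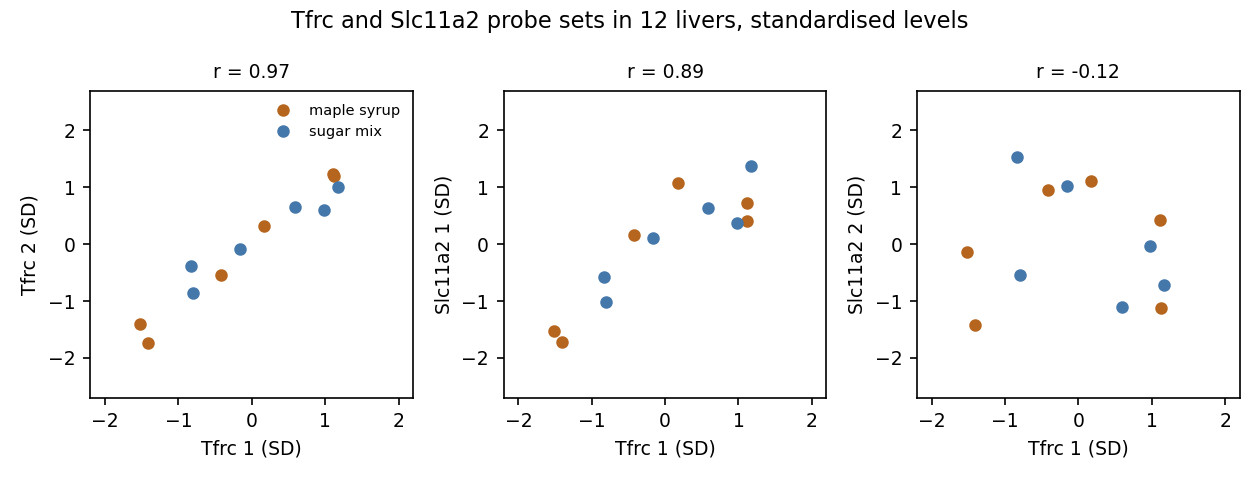
Standardised levels (both axes in SDs) of the brightest Tfrc probe set (horizontal) against the second Tfrc probe set and the 2 Slc11a2 probe sets (vertical), 1 point per liver, coloured by diet. The second Tfrc probe set (r = 0.97) and the brightest Slc11a2 probe set (r = 0.89) rise with it, and the other Slc11a2 probe set (r = -0.12) does not.

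For Slc40a1, the 2 brightest probe sets had an r of 0.90 with each other. The third did not follow them, with r of 0.17 and -0.13. Within maple syrup livers these were 0.78 and 0.61, and within sugar mix livers -0.59 and -0.72. Tfrc and Slc40a1, an importer and the exporter of iron, had an r of -0.49 (permutation p = 0.107) and a rho of -0.56 (permutation p = 0.0634), with -0.34 within maple syrup livers, -0.79 within sugar mix livers and -0.73 without the 2 livers farthest from the Tfrc median. The other 2 Slc40a1 probe sets had r of -0.38 and -0.37 with Tfrc.

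**Figure D4:**
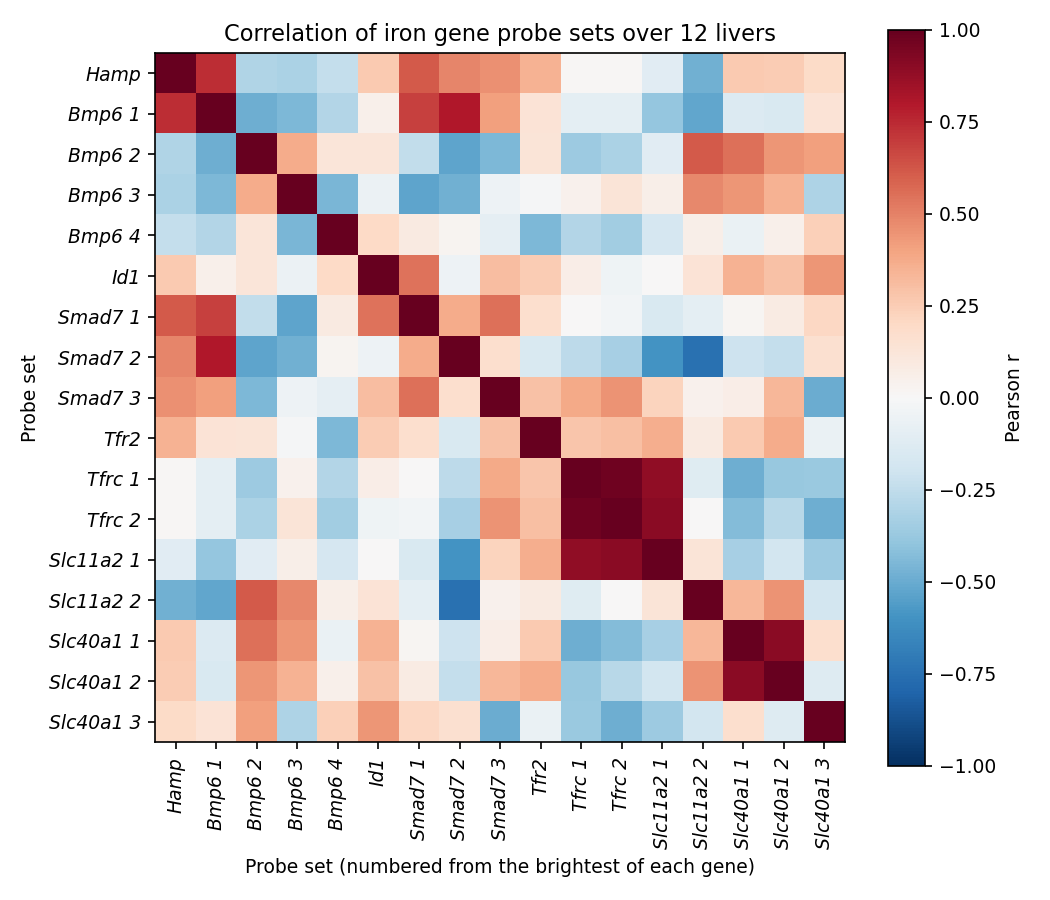
Pearson r over 12 livers (colour scale between -1 and 1) between the 17 probe sets of the 8 iron genes, numbered from the brightest of each gene. Tfrc 1, Tfrc 2 and Slc11a2 1 form a block of high values (0.89 to 0.97), while the 4 Bmp6 probe sets do not (-0.49 to 0.37).

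Genes beyond the members were taken from lists of the pathway, each by its brightest probe set. None of them passed the test between diets. Over all genes, 47.1% were higher with maple syrup. Of 13 measured SMAD proteins and BMP target genes, 8 were higher and 5 lower with maple syrup, with a median g of 0.38. Smad4, the SMAD shared by all branches of the pathway, had the largest g of this list (1.16, 95% interval -0.02 to 2.29, adjusted p = 1 by limma). In 9 of the 13 the r with Hamp was positive, with a median of 0.39 beside 0.01 over all genes, of which 51.4% were positive. Id2, a BMP target like Id1, had 0.72, the ubiquitin ligase Smurf1 had 0.58, the inhibitory Smad6 had 0.56, and Atoh8, a transcription factor induced by BMP6, had 0.56. Against these, Id3 had -0.08 and Smad9 -0.34. These 6 genes were named after their values were seen. Genes of a list share regulators and arrays, and no test was made over the list.

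The 13 measured BMP ligands, receptors, co-receptors and antagonists had lower values. Their median r with Hamp was -0.14, with 6 positive, and their median g was 0.08. Hjv, the hemojuvelin co-receptor, had an r of 0.19 and a g of 0.78 (-0.33 to 1.86), and Bmp2, a second endothelial ligand, had an r of -0.16. Of the 19 genes of the inflammatory route, 8 were higher and 11 lower with maple syrup (median g -0.15), and 13 had a positive r with Hamp (median 0.22). Acute-phase genes ran in r with Hamp between 0.64 for Hp (haptoglobin) and -0.10 for Fgb, a fibrinogen chain, whose partner Fgg had 0.48. Between these lay Lbp with 0.51, Orm1 with 0.43, Crp with 0.36, A2m with 0.22 and Lcn2 with 0.15. Socs3, the feedback inhibitor of this route, had a g of -1.53 (-2.74 to -0.27), with the maple syrup liver above the sugar mix liver in 4 of 36 pairs and an adjusted p of 1 by limma. Its mean score of 7.17 lay below the array medians. Il6st, the signalling subunit of the interleukin 6 receptor, had a g of 1.30 (0.09 to 2.46, adjusted p = 1 by limma). These were the 2 of the 19 genes with an unadjusted limma p under 0.05, beside 4.19% of all probe sets. Both Socs3 and Il6st had an r of -0.44 with Hamp.

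**Figure D5:**
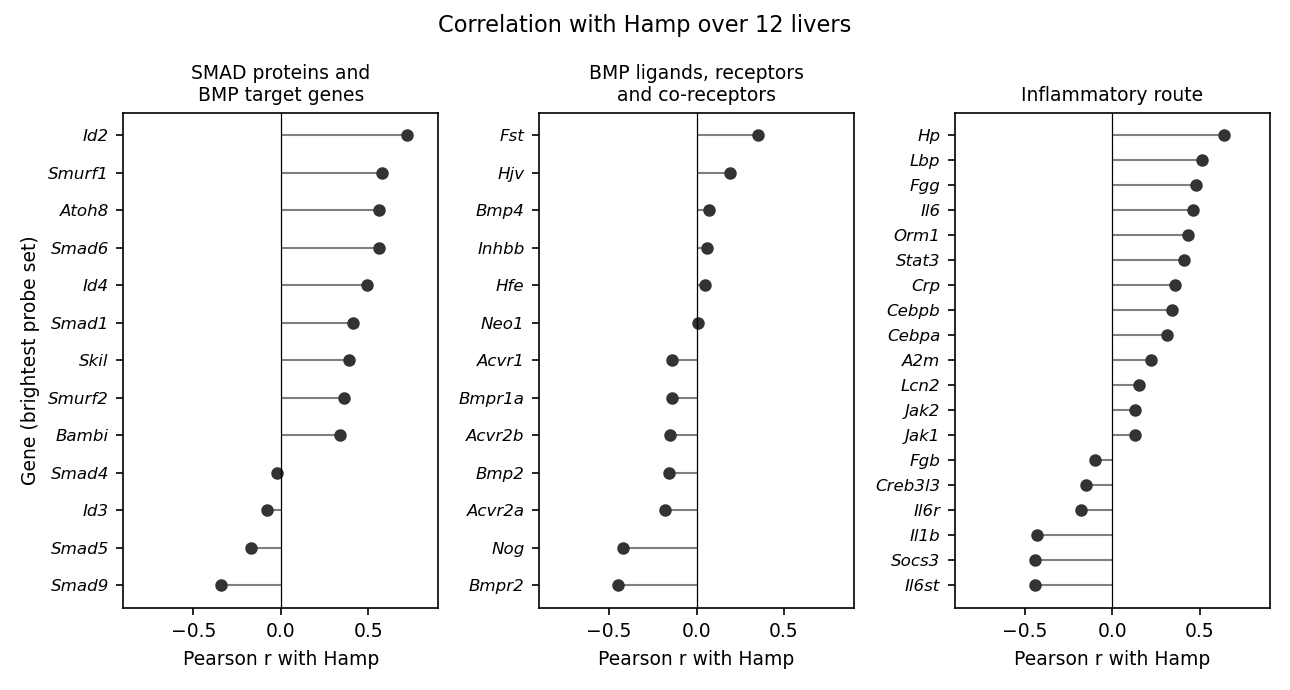
Pearson r with Hamp over 12 livers (horizontal axis) for each measured gene of 3 lists, by its brightest probe set: SMAD proteins and BMP target genes, BMP ligands, receptors, co-receptors and antagonists, and the inflammatory route. Values are positive in 9 of 13, 6 of 13 and 13 of 19 genes.

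In the remaining lists the directions were mixed. Of 12 genes of iron uptake and reduction, 6 were higher and 6 lower with maple syrup. The zinc and iron importer Slc39a14 had the most negative g of these (-0.96). Of 10 storage and regulatory genes, 4 were higher and 6 lower, and the iron regulatory protein genes Aco1 and Ireb2 had g of -0.54 and -0.09. Of 8 genes of export and ferroxidases, 6 were higher and 2 lower, led by Cp, the plasma ferroxidase ceruloplasmin, with a g of 0.84 (-0.29 to 1.92) and an r of 0.59 with Hamp. In the list of 13 mitochondrial iron and iron-sulfur cluster genes, which also holds Hfe, 6 were higher and 7 lower.

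The genes whose pattern over the 12 livers was most like that of Hamp, by Pearson r over all 20825 probe sets, were P4ha3 (0.90), Sorbs3 (0.89), Lrpap1 (0.88), Arid3a (0.87), Usf2 (0.86) and Ly6g6c (0.86). The least like were Ccdc71l (-0.90), Zmynd19 (-0.87) and Kdm5a (-0.87). P4ha3, Arid3a, Ly6g6c and Ccdc71l had mean scores of 6.84, 6.46, 6.74 and 6.74, below the array medians, and no detection call was used. Other probe sets of Sorbs3 had r of -0.16 to 0.07 and that of Lrpap1 had -0.29. Usf2, which encodes a transcription factor, is the next gene after Hamp on the chromosome in the RefSeq table of GRCr8. Its other 2 probe sets had r of 0.36 and 0.57, at ranks 2580 and 558, so all 3 were positive. Lsr, the gene after Usf2, had 0.26, and Mag, the nearest measured gene on the other side, had -0.33.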

How the data were processed

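Liver RNA of 12 rats, 6 per diet, was hybridised to Affymetrix arrays. The deposited table holds the authors' processed value of 31099 probe sets per array, treated here as a score. How it was summarised and normalised is not given in the sources used here. A log2 scale had been assumed in planning; since differences between arrays are compressed, the planned test was kept and the size of an effect is Hedges' g, with its 95% interval from the noncentral t distribution. Groups come from the labels, which call each array a biological replicate and give no batch.

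Names came from the platform annotation: of the probe sets, 20826 had 1 symbol, 436 had several and 9780 are unnamed here, and 57 controls were left out; 20758 of the symbols' probe sets were found in the RefSeq table. The brightest probe set, by mean over all arrays, stood for a gene, and others are given beside it. The diet test was limma 3.58.1 (R 4.3.3; lmFit, then eBayes with trend), with Benjamini-Hochberg adjustment over all 20826 probe sets. Correlations have permutation p values (100000 resamples, two-sided; exact within a diet) adjusted over all probe sets; this replaced a planned adjustment over the members. The tests were tried on simulated data. The members and lists were chosen with earlier results of these data known. Named genes were all members, up to 3 genes of each list with the smallest limma p, and the 6 most and 3 least like Hamp. Other list genes, and those given beside Slc11a2 for their correlation with Tfrc, were named after their values were seen. Same-numbered livers of the 2 diets had correlations of their deviations of -0.04 to 0.12. The labels do not say whether the numbers pair the livers, so the main test used no pairing. With a replicate block the moderated t of Tfrc was -0.99, beside -0.55 without it. Pairing in single genes was not tested. Alternatives were quantile normalization, median centring, other probe sets, a filter on the dimmest 30%, no variance trend, array weights, a replicate block and leaving out livers. Figures were drawn with matplotlib 3.10.9.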

Additional observations from a re-analysis of the deposited data

Results flagged for a closer look

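Of 34 combinations of a member probe set and a diet, 2 held a liver far from the other 5 by Dixon's criterion, where chance gives about 1.7. Hamp in maple syrup replicate 5 stood at -1.67 SD, and the nearest of the other maple syrup livers was at 0.48. The 2 lowest sugar mix livers stood at -1.71 and -1.24. The dimmest Smad7 probe set in maple syrup replicate 1 stood at 2.46 SD, and the nearest liver was at -0.02. The same liver was also the highest for the brightest Smad7 probe set, at 1.84 SD.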

How the results depend on the processing

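No setting gave a called probe set between the diets or a correlation with Hamp past the adjusted threshold, the replicate block included, with 0 probe sets called; single genes' values were of the same sign in 288 repeats and turned in 32. The sign of the diet difference, as the moderated t, turned under quantile normalization for Bmp6 (-1.40) and Smad7 (-0.78), and under median centring for Tfr2 (0.23), Slc11a2 (0.11) and Slc40a1 (0.28). Leaving out single livers gave a moderated t of 0.30 to 1.75 for Hamp, -0.14 to 1.02 for Id1, -0.93 to 0.04 for Slc11a2 and -1.25 to 0.19 for Slc40a1. The r with Hamp turned for Bmp6 under quantile normalization (-0.03) and with its other probe sets (-0.30, -0.32 and -0.24), and for Id1 within sugar mix livers (-0.27). For Slc11a2 it turned as a rho (0.31), within sugar mix livers (0.34), without the 2 farthest livers (0.27), after median centring (0.17) and without the 3 lowest Hamp livers (0.60), the last a setting chosen after seeing the data. For Slc40a1 it turned without the 2 farthest (-0.28) and without the 3 lowest Hamp livers (-0.55), and for Tfrc within maple syrup livers (-0.02) and under quantile normalization (-0.19). Leaving out single livers gave an r with Hamp of -0.33 to 0.09 for Slc11a2 and -0.15 to 0.22 for Tfrc. Without the 3 lowest Hamp livers the r of Tfrc was 0.63. With the other Slc11a2 probe set, the r with Tfrc was -0.12. Array medians differ by more than most members vary, so median centring writes them into those members by construction, and the turned signs after it say nothing about the genes. Quantile normalization, which sets values by rank, made Tfr2 and Slc40a1 constant and gave no value for them. Their brightest probe sets ranged over 1.01e-05 and 2e-05 as deposited, beside 1.52e-05 for Bmp6 and 8.95e-05 for Smad7. Whether the turned signs after it reflect the genes was not tested. The other causes were not tested. Precision is limited by the number of arrays, and no detection call was used.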
